A study of Mus musculus with 12 samples.

Results

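Nuclear long noncoding RNAs are transcripts that act as RNA, many of them inside defined bodies of the nucleus. The set described here was Malat1, Neat1, Miat, Snhg11 and Rmst, chosen by name and matched to the count tables through their Ensembl IDs in GENCODE M21. Of these 5 genes, 4 had a row among the 41091 gene IDs of each table. The ID of Rmst (ENSMUSG00000112117, GRCm38 chromosome 10, 92071037 to 92165170, minus strand) was not among them, so no value is given for Rmst. In all, 874 IDs of the tables had no match in GENCODE M21, and whether one of these is an older ID of the Rmst locus was not resolved. All 4 genes with a row passed the filter on low counts in every comparison.

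Malat1 lies in and around nuclear speckles, the bodies in which splicing factors gather. Neat1 is the scaffold on which paraspeckles are built, and its short and long isoforms share their 5′ end. Miat, also called Gomafu, forms its own spotted pattern in the nuclei of neurons. Snhg11 belongs to the host genes whose introns carry small nucleolar RNAs. Rmst is a transcript of the neural lineage that binds the transcription factor Sox2. Location within the cell was not measured in these libraries.

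RNA was taken from mini-slices of the hippocampus, with the dentate gyrus trimmed away. The mice were male C57BL/6 wild types between 2 and 3 months of age. LTP slices received forskolin, an adenylyl cyclase activator, at 50 uM for 5 min and then together with 30 mM KCl and 10 mM calcium for 5 min, which induces chemical long-term potentiation (cLTP). Control slices of the same animals received 0.2% DMSO for 10 min, and slices were frozen 1 hr or 3 hr afterwards. LTP and control slices at each time made up 4 groups with 3 libraries each, from 3 animals. A library holds RNA of all cells of the slice, so fewer cells of a type and less RNA per cell cannot be told apart.

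Library totals ran from 37118382 to 50815001 counts, and 3 counts corresponded to between 0.059 and 0.0808 CPM (counts relative to library size, scaled with TMM factors). The study set aside the library 1 hr control 2 as an outlier of its clustering, and the comparisons below leave it out unless stated, so the 1 hr control group then has 2 libraries. Markers of neurons were present in every library, at a summed level between 5433.3 and 7453 CPM over 4 genes. The 3 markers of choroid plexus together stayed between 23 and 29.2 CPM. Markers of dentate granule cells, which the trimming should reduce, summed to between 111.8 and 213.1 CPM over 3 genes. Of 36 markers of 10 cell types, edgeR called 0 in either LTP comparison, with 8 of 36 at 1 hr and 4 of 35 tested at 3 hr at an unadjusted p under 0.05, where 6.71% and 20.2% of all genes tested had such a p. DESeq2 called 0 at 1 hr and 1 at 3 hr, and limma-voom called 0 at both.

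The sequence elements by which these RNAs are known are shown first, because the count tables give 1 number per gene and library. Malat1 (ENSMUSG00000092341) spans chromosome 19, 5795690 to 5802672, on the minus strand of GRCm38, with 6983 exon bases and a single-exon transcript of that length. Its mature 3′ end carries no poly(A) tail added by a polymerase. It is known to be protected by a triple helix of U-rich tracts and an encoded A tract, with a tRNA-like piece cut off downstream. In the stretch below, from transcript position 6574 to 6746 (chr19:5795927-5796099, minus strand, letters as DNA), the capitals mark the 2 U-rich tracts and the run of 12 A that starts at position 6674.
Malat1 3′ element: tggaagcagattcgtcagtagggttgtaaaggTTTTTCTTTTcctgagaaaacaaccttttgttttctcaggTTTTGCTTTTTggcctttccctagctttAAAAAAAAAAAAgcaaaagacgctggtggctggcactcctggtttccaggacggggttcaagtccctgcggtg

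Miat (ENSMUSG00000097767) spans chromosome 5, 112213228 to 112229395, minus strand, with 9293 exon bases. Miat is known for repeats of the letters UACUAAC, which match the branch point sequence of introns and bind the splicing factor SF1. Read as TACTAAC on the transcript strand alone, the 9163-base transcript Miat-205 held 6 copies, in 2 stretches of the same exon. Of the 68537 GENCODE M21 transcripts of at least 1000 bases, 6.35% held at least 1 copy. At least 6 were held by 5 transcripts, or 0.0073%, among them Miat-205 itself and Miat-201. Neat1-201, of 20771 bases, held 1 copy, and Malat1 and Snhg11 held 0. The capitals mark the repeats in positions 4921 to 5092 (chr5:112217299-112217470) and 5569 to 5649 (chr5:112216742-112216822).
Miat repeats, first stretch: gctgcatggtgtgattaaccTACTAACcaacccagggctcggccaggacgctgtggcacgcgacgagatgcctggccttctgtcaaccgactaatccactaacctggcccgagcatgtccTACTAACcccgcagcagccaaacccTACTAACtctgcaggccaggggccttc
Miat repeats, second stretch: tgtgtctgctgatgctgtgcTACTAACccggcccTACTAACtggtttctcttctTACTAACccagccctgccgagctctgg

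All 6 copies lie within 2 small features annotated on the same strand inside Miat, Gm27627 and Gm27882, and both features were listed at 0 counts in all 12 libraries. The same held for Gm27694 inside Malat1, for Gm27533, Gm27505 and Gm28006 inside Neat1, for Gm27998 and Gm27357 in Miat and for Gm25187 inside Snhg11. How reads over such nested features were assigned is not stated, so the counts of the host genes may lack those bases. Gm26953, an antisense gene that overlaps Miat, had from 0 to 6 counts per library. At the Rmst locus the small feature Gm27544 had from 2 to 15 counts per library and Gm27588 from 0 to 4. The antisense gene Gm26700 there had from 0 to 7. None of these stands for Rmst itself.

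Promoters were available for 3 of the 5 genes, Malat1, Miat and Snhg11, from RefSeq on GRCm38.p6, each as 300 bases from 250 before to 50 after the start. Forskolin raises cyclic AMP, and the cyclic AMP response element (CRE) is bound by CREB, so the half-site TGACG was searched on both strands (CGTCA on the other). The Malat1 promoter (chr19:5802623-5802922, minus strand) held 3 matches, which begin 154, 45 and 3 bases before the start and are in capitals below. The Miat and Snhg11 promoters held 0. The Miat promoter (chr5:112228899-112229198) lies within the GENCODE span of Miat, which ends at 112229395, so bases before the GENCODE start were not searched. The Snhg11 promoter (chr2:158375463-158375762) includes the GENCODE start at 158375638. At least 1 match occurred in 20.8% of 32851 promoters of the same length and at least 3 in 1.03%. The full palindrome TGACGTCA, in which both half-sites overlap, occurred in 1.79% and in none of these 3.
Malat1 promoter: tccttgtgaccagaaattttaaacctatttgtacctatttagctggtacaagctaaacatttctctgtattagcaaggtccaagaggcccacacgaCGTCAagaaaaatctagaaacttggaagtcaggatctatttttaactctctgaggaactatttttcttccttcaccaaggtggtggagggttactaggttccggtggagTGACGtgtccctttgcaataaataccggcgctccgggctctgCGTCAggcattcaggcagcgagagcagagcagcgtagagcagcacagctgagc

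The levels of the 4 genes differed widely, and only Malat1 was among the highest genes of the tables. Per length, on the RPKM scale (CPM per kilobase of exon), Malat1 lay between 1674.8 and 2612.4 over the 12 libraries and Snhg11 between 66.9 and 97.9. Miat lay between 19.8 and 33 and Neat1 between 2.91 and 14.1. The RPKM ranges of the 4 genes did not overlap. By counts Malat1 was the first gene of the table in 10 of 12 libraries and the second in 1 hr control 1 and 2, and it held from 1.16% to 1.77% of all counts. Snhg11 ranked between 101 and 200, Miat between 525 and 1144 and Neat1 between 587 and 3962. The word abundant therefore holds for Malat1 and, by rank, for Snhg11 and Miat more than for Neat1, whose rank per kilobase lay between 3553 and 9475. The study describes restricting its expression analysis to reads over coding sequence, and whether the deposited counts carry that restriction is not stated, so the counted bases may differ from the exon bases used for RPKM. GENCODE M21 types Snhg11 (ENSMUSG00000044349, chromosome 2, 158375638 to 158386145, plus strand, 8521 exon bases) as protein-coding.

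**Figure D1:**
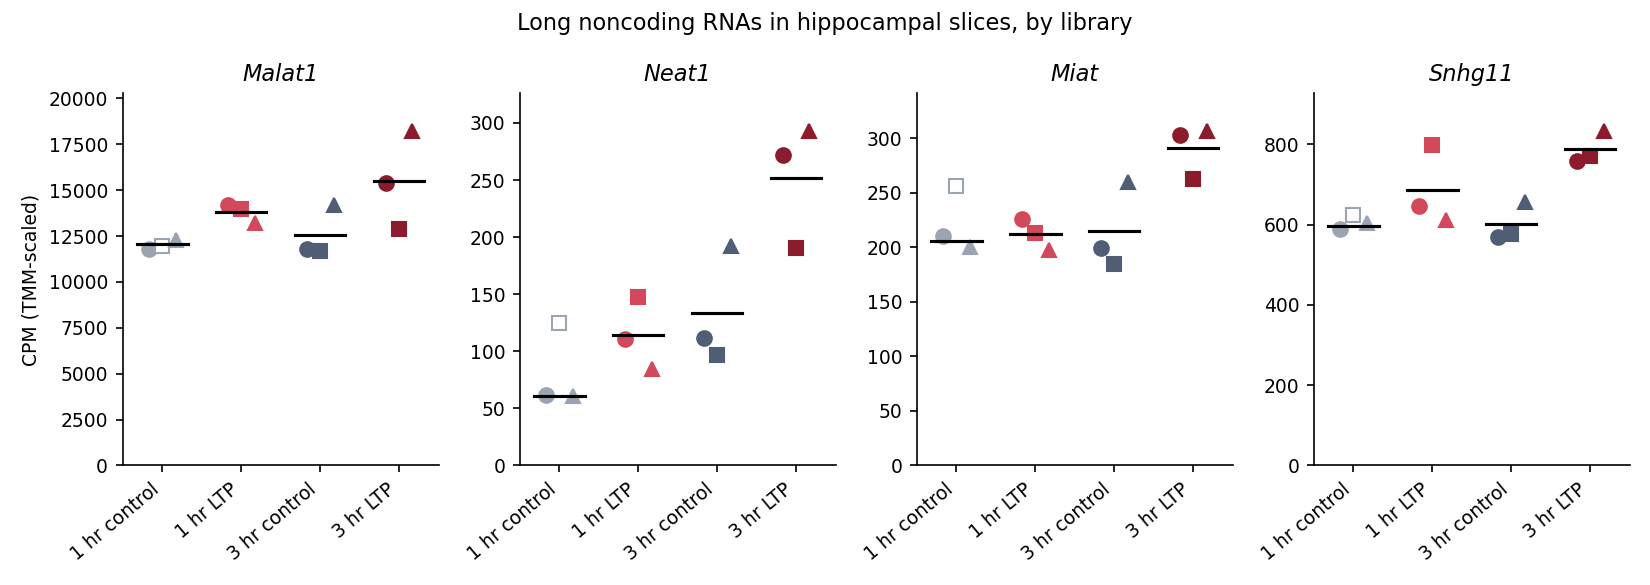
CPM (y axes, linear from 0, 1 panel per gene) of the 4 long noncoding RNAs in each of the 12 libraries by group; circles, squares and triangles are animals 1, 2 and 3, the open square is the library 1 hr control 2 that the study set aside, and black lines are group means without it. The 3 hr LTP libraries of Miat and Snhg11 sit above all 3 hr controls, whereas those of Malat1 and Neat1 overlap with 3 hr control 3. Of all genes tested at 3 hr, 27% had groups that did not overlap.

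After LTP induction edgeR called Neat1 higher at both times, and Miat and Snhg11 higher at 3 hr. DESeq2 called 0 of the 4 genes at 1 hr and 2 at 3 hr, with Neat1 called at neither time. By limma-voom the counts were 1 and 3. Malat1 was 1.15-fold higher at 1 hr and 1.25-fold higher at 3 hr without passing the test, which did not pair slices by animal. With the animal as a block Malat1 passed at 3 hr (0.31, edgeR adjusted p = 0.0543). Genes were called at an adjusted p below 0.1 in edgeR and a change above 1.2-fold. At 1 hr 1 of the 4 genes was called, where 0.789% of all 17736 genes tested were called in either direction and 0.778% as higher. At 3 hr 3 of 4 were called, all higher, where 6.6% of 17508 genes were called and 5.07% as higher. The median log2 fold change over all genes was -0.00103 at 1 hr and -0.00248 at 3 hr.

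Neat1 (ENSMUSG00000092274, chromosome 19, 5824708 to 5845478, minus strand, 20771 exon bases) had 61.6 and 60.5 CPM in 1 hr control 1 and 3, and 124.7 CPM in the library set aside, 1 hr control 2. The 1 hr LTP libraries had 110.7, 147.8 and 84.3 CPM. Each LTP library was above both controls used, where 22.6% of all genes tested at 1 hr had groups that did not overlap in either direction. The library 1 hr control 2 lay above 2 of the 3 LTP libraries. Neat1 rose by a log2 fold change of 0.92 (SE 0.161, edgeR adjusted p = 0.0122, 1.89-fold, n = 3 against 2). With 1 hr control 2 included the log2 difference was 0.48 (adjusted p = 0.62) and the call was lost, and with that library and the animal as a block it was 0.53 (adjusted p = 0.0897). DESeq2 gave 0.92 without a call (adjusted p = 0.233). Without 1 hr control 1 or 1 hr control 3, which leaves a lone control library assumed to vary like the LTP group, the log2 differences were 0.93 and 0.90 (adjusted p = 0.165 and 0.203). Over the 14 alternatives tried, the adjusted p ran from 6.79e-26 to 0.62, and 10 called Neat1.

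Within each animal, Neat1 was higher in the LTP than in the control slices at 1 hr, by 0.84, 0.24 and 0.48 on the log2 scale in animals 1, 2 and 3. The summed level of the 5 oligodendrocyte markers lay between 6806.5 and 8123 CPM in 1 hr LTP and between 5602.5 and 7041.6 CPM in 1 hr controls, and the log2 difference of all 5 was above 0, with none called. The lowest of the 5 was Mog, at 53.4 CPM or more in every library. In 1 hr control 2, the control with the most Neat1, that sum was 5858.6 CPM, between the other controls. The 3 endothelial markers all had a log2 difference below 0, with none called, and summed to between 64.7 and 66.4 CPM in 1 hr LTP and between 75.5 and 82.5 CPM in 1 hr controls. The 3 markers of inhibitory neurons were all above 0, with none called, at sums between 383.6 and 409.9 CPM in 1 hr LTP and between 338.7 and 384.8 CPM in 1 hr controls. The part of these markers in the Neat1 result was not tested.

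At 3 hr Neat1 had 111.2, 96.6 and 191.8 CPM in the controls and 271.5, 190.3 and 293.2 CPM in the LTP libraries. The groups overlapped by a small margin, since 3 hr LTP 2 lay just below 3 hr control 3. The log2 fold change was 0.93 (SE 0.252, edgeR adjusted p = 0.0835, 1.9-fold, n = 3 and 3). Within animals the log2 ratios were 1.29, 0.98 and 0.61. All 3 animals thus had more Neat1 in the LTP slices, and the animal with the highest control had the smallest ratio. The call was lost in DESeq2 (0.93, adjusted p = 0.111) and without 3 hr control 1 (0.81, 0.276), 3 hr control 2 (0.74, 0.28), 3 hr LTP 1 (0.87, 0.243) or 3 hr LTP 3 (0.79, 0.117, log2 difference and adjusted p in each case). Over the 13 alternatives the adjusted p ran from 0.00401, with the animal as a block, to 0.28.

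**Figure D2:**
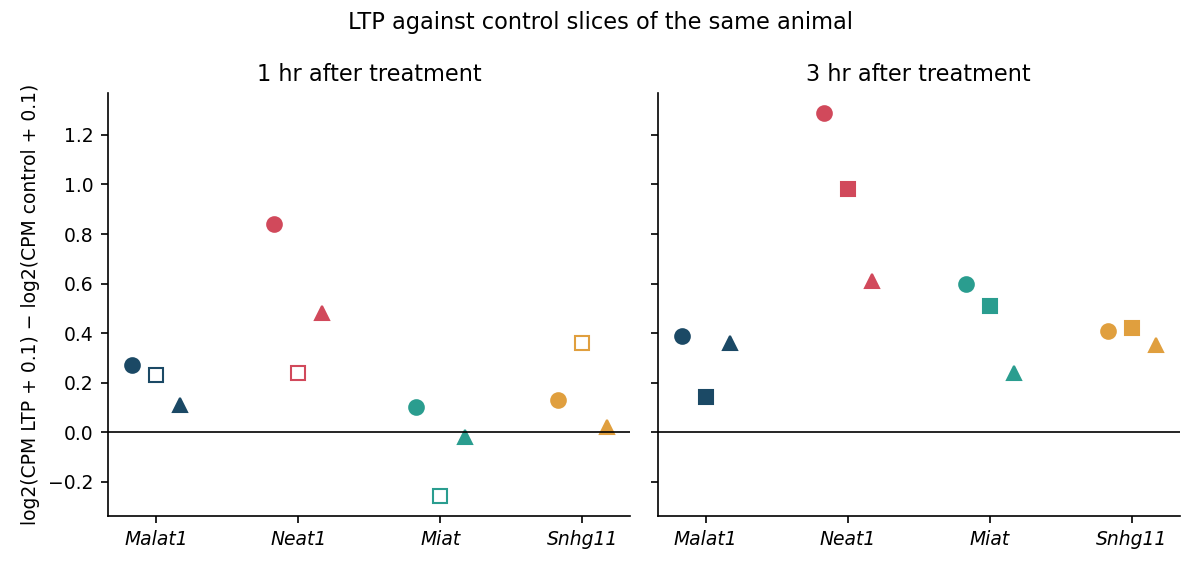
Log2 ratio of LTP to control slices of the same animal (y axis, from CPM with 0.1 added) for each gene (x axis) at 1 hr (left) and 3 hr (right); circles, squares and triangles are animals 1, 2 and 3, and open squares rest on the library 1 hr control 2. At 3 hr all 12 ratios lie above 0, from 0.14 for Malat1 in animal 2 to 1.29 for Neat1 in animal 1, and at 1 hr Miat lies at -0.26 and -0.02 in animals 2 and 3.

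Miat had 210.7 and 200 CPM in 1 hr control 1 and 3, 256.4 CPM in 1 hr control 2, and 226.3, 213.4 and 197.3 CPM in the 1 hr LTP libraries. These groups overlapped, and the log2 difference of 0.06 (SE 0.0728, edgeR adjusted p = 0.956) did not pass the test. At 3 hr the controls had 199.8, 184.4 and 260.1 CPM and the LTP libraries 302.6, 262.6 and 306.9 CPM. Every LTP library was above every control, by a small margin between 3 hr LTP 2 and 3 hr control 3. Groups that do not overlap were found for 27% of all genes tested at 3 hr. Miat rose at 3 hr by a log2 fold change of 0.45 (SE 0.126, adjusted p = 0.0905, 1.37-fold, n = 3 and 3), and the ratios within animals were 0.60, 0.51 and 0.24. The call was lost without 3 hr control 1 (0.40, adjusted p = 0.297), 3 hr control 2 (0.35, 0.326), 3 hr LTP 1 (0.42, 0.266) or 3 hr LTP 3 (0.40, 0.127), and the adjusted p over all 13 alternatives ran from 0.0134 to 0.326.

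Snhg11 had 590.1 and 603.5 CPM in 1 hr control 1 and 3, 623.8 CPM in 1 hr control 2, and 647.8, 799.8 and 612.8 CPM in the 1 hr LTP libraries. The LTP libraries lay above both controls used, as for 22.6% of genes whose groups did not overlap at 1 hr in either direction, and LTP 3 lay below 1 hr control 2. The log2 difference was 0.21 (SE 0.095, edgeR adjusted p = 0.723) and was 0.09 without 1 hr LTP 2 (adjusted p = 0.954). At 3 hr the controls had 570.4, 575.7 and 656.3 CPM and the LTP libraries 759.2, 771.7 and 834.3 CPM. These groups had a clear gap between them, where 27% of all genes tested at 3 hr had groups that did not overlap. Snhg11 rose by a log2 fold change of 0.41 (SE 0.0773, adjusted p = 0.0281, 1.32-fold, n = 3 and 3). Its ratios within animals, 0.41, 0.42 and 0.35, were the closest together of the 4 genes. The call was lost without 3 hr control 1 (0.37, adjusted p = 0.15) or 3 hr control 2 (0.37, 0.174), in a range over the 13 alternatives from 0.000203 to 0.174.

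The snoRNA feature Gm25129, in an intron of Snhg11, had from 34 to 125 counts per library and was not called after LTP induction (log2 differences of 0.71 at 1 hr, SE 0.304, and 0.26 at 3 hr, SE 0.177, edgeR adjusted p = 0.699 and 0.44). Between the times it rose by 1.19 in controls (SE 0.251, adjusted p = 0.00339) and by 0.75 in LTP slices (SE 0.206, adjusted p = 0.0118). Total RNA reads from an unspliced host could also fall on it, and this was not tested.

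Malat1 had 11805.4 and 12293.1 CPM in 1 hr control 1 and 3, 11932.7 CPM in 1 hr control 2, and 14208, 13963.6 and 13225.4 CPM in the 1 hr LTP libraries. All LTP libraries were above both controls used, among the 22.6% of genes whose groups did not overlap at 1 hr, and also above 1 hr control 2. The log2 difference was 0.21 (SE 0.0543, edgeR adjusted p = 0.181). Over the 14 alternatives the adjusted p ran from 0.00499 to 0.972 and none called Malat1. Without 1 hr LTP 3 (0.24, adjusted p = 0.00499) and with no filter on low counts (0.20, adjusted p = 0.018) the p passed and the change stayed below 1.2-fold. At 3 hr the controls had 11768.1, 11695.4 and 14205.3 CPM and the LTP libraries 15398.2, 12911.8 and 18242.4 CPM. Here the groups overlapped, since 3 hr control 3 lay above 3 hr LTP 2. The log2 difference of 0.32 (SE 0.133, adjusted p = 0.222) did not pass the test, and without 3 hr LTP 3 it was 0.18. With the animal as a block the value was 0.31 and passed (SE 0.0773, adjusted p = 0.0543), and without 3 hr LTP 2 it was 0.44 and passed (adjusted p = 0.0327). Over the 13 alternatives the adjusted p ran from 0.0327 to 0.543. Within animals the ratios were 0.27, 0.23 and 0.11 at 1 hr and 0.39, 0.14 and 0.36 at 3 hr, all above 0.

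In all 4 genes 3 hr control 3 was the highest of the 3 hr controls, and 3 hr LTP 3, from the same animal, was the highest of the 3 hr LTP libraries. For Miat the latter depended on TMM scaling, as total counts gave 306.1 CPM in 3 hr LTP 1 and 298.2 CPM in 3 hr LTP 3. Leaving out 3 hr control 3 alone parts the pair of animal 3, whose log2 ratios were 0.61 for Neat1, 0.24 for Miat, 0.35 for Snhg11 and 0.36 for Malat1. Without 3 hr control 3 the 3 hr log2 differences were 1.30 for Neat1 (adjusted p = 0.0368), 0.62 for Miat (0.0414), 0.48 for Snhg11 (0.0474) and 0.42 for Malat1 (0.202, not called). Its library total was 50815001 counts, the largest of the series. The parts of depth and of the animal in its levels were not tested.

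Beside the 3 hr results, the 3 markers of inhibitory neurons summed to between 398.2 and 423.9 CPM in 3 hr LTP and between 359.6 and 394.1 CPM in 3 hr controls, with no overlap, 2 of 3 above 0 and none called. The 3 markers of excitatory neurons summed to 3051.8, 2382.5 and 3721.6 CPM in 3 hr LTP 1, 2 and 3 and to between 2703.2 and 2791.2 CPM in the controls, with all 3 above 0 and none called. Their order over the 3 hr LTP libraries was that of Neat1 and Malat1, and that of Miat with TMM scaling but not on total or protein-coding counts. In 3 hr control 1, 2 and 3 these sums were 2703.2, 2726 and 2791.2 CPM, an order that Neat1, Malat1 and Miat did not have. The 4 neuron markers, of which 0 had a log2 difference above 0, summed to 5433.3, 5646.6 and 5910.2 CPM in 3 hr LTP 1, 2 and 3, another order. All 5 microglia markers were below 0, with none called and sums that overlapped (from 119.6 to 129.9 CPM in LTP and from 125.5 to 141.5 CPM in controls). The part of these markers in the 3 hr results was not tested.

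**Figure D3:**
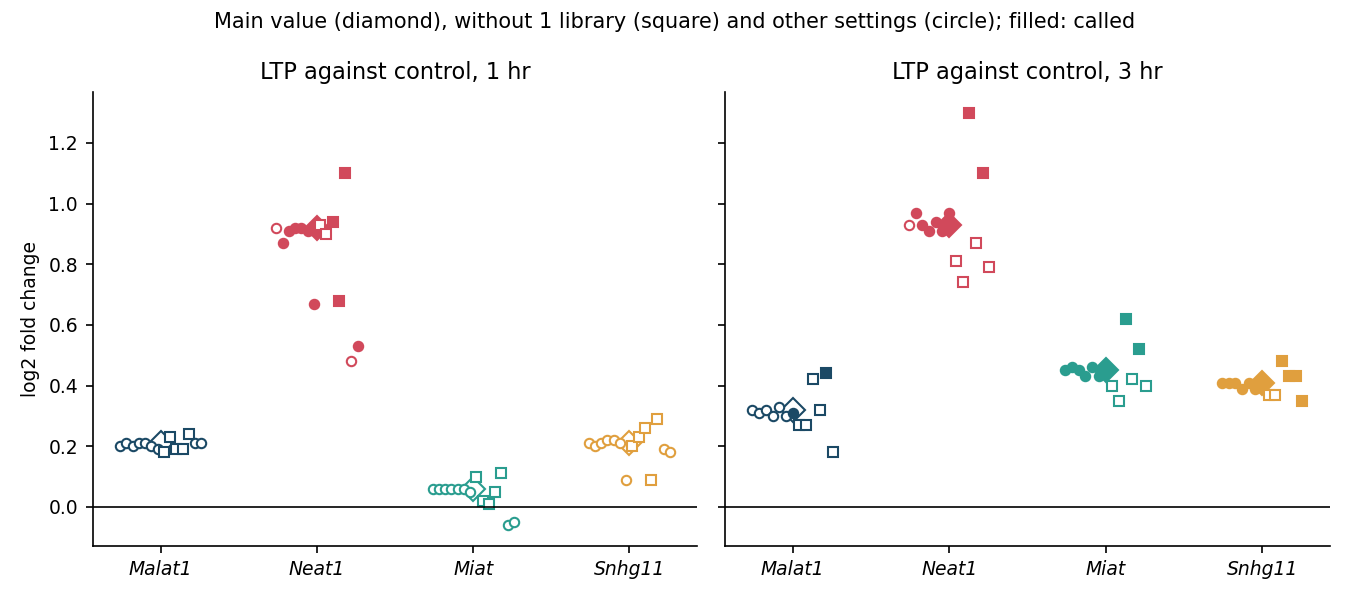
Log2 fold change after LTP induction (y axis) of each gene (x axis) at 1 hr (left) and 3 hr (right); diamonds are the values reported, squares leave out a library each, circles are the other tools, scalings, filters and blocks, and filled points were called. At 3 hr all points lie above 0, from 0.18 for Malat1 to 1.30 for Neat1.

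**Figure D4:**
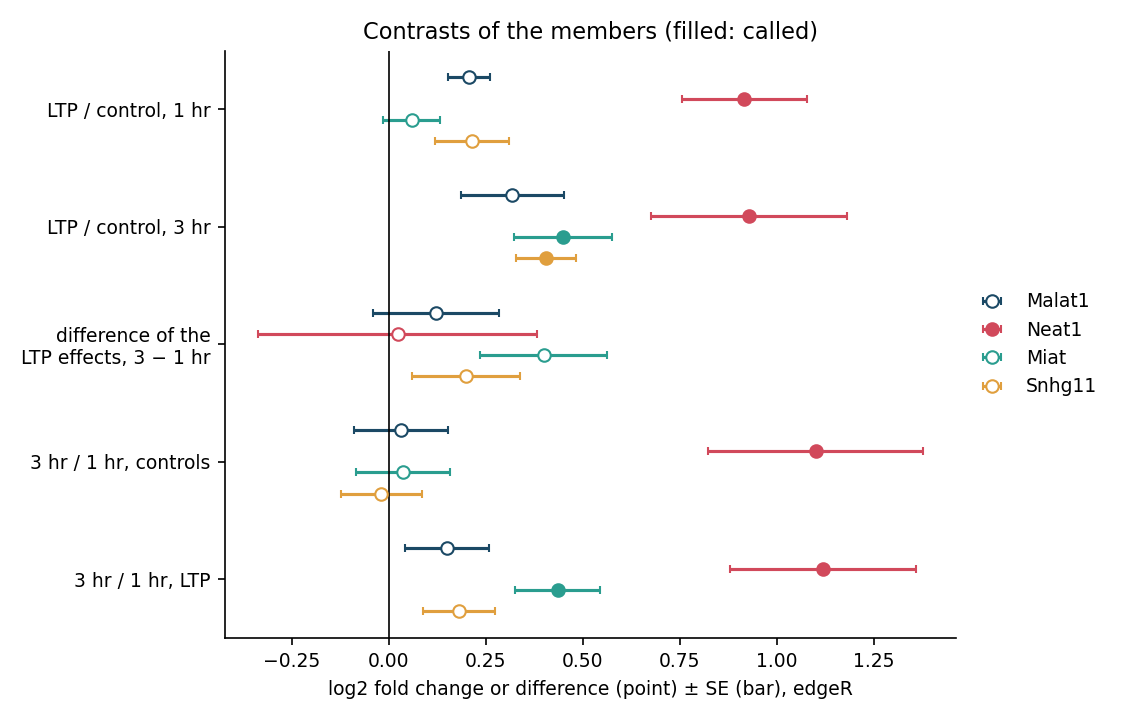
Log2 fold change, or difference of log2 fold changes, with its SE (x axis, edgeR) of Malat1, Neat1, Miat and Snhg11 in 5 contrasts (y axis); filled points were called. Neat1 is filled in 4 contrasts, between 0.92 and 1.12, and no point of the difference between the LTP effects is filled.

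Whether the LTP effect changed between 1 hr and 3 hr was tested as a difference of the log2 fold changes in a model of the 4 groups with 11 libraries. edgeR called 0 of the 4 genes, where it called 0.0592% of 18584 genes, and 1 of 4 had an unadjusted p under 0.05, as did 6.59% of all genes. DESeq2 and limma-voom also called 0. That 1 gene was Miat, with a difference of 0.40 (SE 0.163, edgeR adjusted p = 0.69). The differences were 0.20 for Snhg11 (SE 0.139), 0.12 for Malat1 (SE 0.162) and 0.02 for Neat1 (SE 0.359), with adjusted p-values of 0.891, 0.967 and 0.998. For Neat1 the difference was 0.31 with the animal as a block, 0.45 with 1 hr control 2 included and 0.44 with both (edgeR adjusted p = 0.664, 0.859 and 0.64). For Snhg11 it was 0.33 both with the animal as a block and without 1 hr LTP 2 (edgeR adjusted p = 0.326 and 0.579). The calls of Miat and Snhg11 at 3 hr and not at 1 hr were therefore not shown to be a difference between the times.

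Between the time points, Neat1 was the gene of the set that rose in both kinds of slice. From 1 hr to 3 hr controls it rose by a log2 fold change of 1.10 (SE 0.277, edgeR adjusted p = 0.00912, 2.14-fold, n = 3 against 2), with 32.8% of 18584 genes called in that comparison and 16.1% as higher. From 1 hr to 3 hr LTP slices it rose by 1.12 (SE 0.24, adjusted p = 0.0028, n = 3 and 3), with 35.9% called and 18.6% as higher. Both calls held under all 18 alternatives, and with 1 hr control 2 included the first was 0.69 (adjusted p = 0.09). The slices of the 2 time points were assumed to be of different animals, so time after treatment and the set of animals cannot be told apart.

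Miat rose between the times in LTP slices (log2 fold change 0.43, SE 0.109, adjusted p = 0.00706), under all 18 alternatives as well, whereas in controls the value was 0.04 (SE 0.122, adjusted p = 0.849). The difference between these 2 values is the same contrast as above and was not called. For Snhg11 the values were -0.02 in controls (adjusted p = 0.908) and 0.18 in LTP slices (SE 0.093, adjusted p = 0.145), the latter called without 1 hr LTP 2 at 0.33 (adjusted p = 0.00857). For Malat1 they were 0.03 (adjusted p = 0.872) and 0.15 (SE 0.108, adjusted p = 0.293), the latter called without 3 hr LTP 2 at 0.27 (adjusted p = 0.022). Beside these, microglia markers fell between the times, 4 of 5 called lower in controls and 4 of 5 in LTP slices, with a sum between 168 and 196.5 CPM at 1 hr and between 119.6 and 141.5 CPM at 3 hr. Of the 5 oligodendrocyte markers 2 were called higher in each. Of the 4 neuron markers 3 were called lower in controls and 2 in LTP slices, with a sum between 6563.3 and 7453 CPM at 1 hr and between 5433.3 and 5910.2 CPM at 3 hr. Of the 3 endothelial markers 2 were called lower in controls and 1 higher in LTP slices. Over all 36 markers of the 10 cell types, 16 were called in controls and 13 in LTP slices. The part of cell makeup in the time contrasts was not tested.

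In the order of group means, Neat1 went from 1 hr controls (61 CPM ± 0.776, SD, n = 2) over 1 hr LTP (114.2 ± 31.9, n = 3) and 3 hr controls (133.2 ± 51.3, n = 3) to 3 hr LTP (251.7 ± 54.3, n = 3). Its 2 middle groups differed by less than the SD of either. Malat1 ran from 12049.2 CPM ± 344.8 in 1 hr controls (n = 2) to 12556.3 ± 1428.6 in 3 hr controls, 13799 ± 511.5 in 1 hr LTP and 15517.5 ± 2667.3 in 3 hr LTP, with each step within the larger SD of its neighbours. Miat had 205.4 ± 7.59 in 1 hr controls, 212.3 ± 14.5 in 1 hr LTP and 214.8 ± 40 in 3 hr controls, where each step was smaller than the larger SD of its neighbours, and 290.7 ± 24.4 in 3 hr LTP. For Snhg11 the 1 hr controls (596.8 ± 9.44) and 3 hr controls (600.8 ± 48.1) were close, followed by 1 hr LTP (686.8 ± 99.4) and 3 hr LTP (788.4 ± 40.2). The step from 3 hr controls to 1 hr LTP was smaller than the SD of the latter. The 3 hr LTP group had the highest mean for all 4 genes.

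Over the 12 libraries Neat1 varied 4.85-fold between its lowest and highest level, against 1.56-fold for Malat1, 1.66-fold for Miat and 1.46-fold for Snhg11. The patterns of Malat1 and Snhg11 were the most alike, with a root mean square difference of 0.119 between their centred log2 levels over 12 libraries, and Malat1 and Miat differed by 0.162. Neat1, with the widest spread, differed from the others by 0.528 to 0.589. By the same measure, the genes most like Malat1 among 14103 were Tnrc6b (0.0676), Rbms2 (0.0678) and Las1l (0.0684), where the median gene had 0.265. Among those most like Miat were Csmd1 (0.0893) and Hcfc1 (0.0916). Those most like Snhg11 were Nktr (0.0677), Sgcd (0.0739) and Ryr3 (0.0772). Those most like Neat1 were Stac3 (0.192), Gm10571 (0.311) and the chemokine Cxcl1 (0.328), where the median gene had 0.735. The measure grows with a gene's own spread (SD of the log2 level 0.719 for Neat1 and 0.185 for Malat1), so its size is not compared between the 4 genes. Cxcl1 ran in its group means, here over all 3 libraries of each group with 1 hr control 2 included, from 13.6 CPM in 1 hr controls over 19.3 and 26 CPM in 1 hr LTP and 3 hr controls to 46.4 CPM in 3 hr LTP. The libraries share depth and scaling, so these values describe likeness only.

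The neighbours of these genes gave a check on whether a whole stretch of chromosome moved. Neat1 and Malat1 lie 22035 bases apart on the same strand, and Frmd8 lies 4223 bases beyond Neat1. Frmd8 was not called after LTP induction (log2 differences of 0.15 at 1 hr, SE 0.118, and 0.0066 at 3 hr, SE 0.0955, edgeR adjusted p = 0.92 and 0.979). Between the times Frmd8 rose as Neat1 did, by 0.89 in controls and 0.75 in LTP slices (adjusted p = 0.000202 and 0.000167). Next to Snhg11, Snhg17, another snoRNA host, lies 14057 bases away and was not called after LTP (-0.31 at 1 hr and 0.12 at 3 hr), but rose between the times (0.33 in controls, adjusted p = 0.0187, and 0.77 in LTP slices, adjusted p = 4.74e-05). Ralgapb, 23702 bases on the other side, was called in none of the 5 contrasts. Miat has no close tested neighbour on one side (E130006D01Rik at 451502 bases), and Cryba4, at 17097 bases on the other, was too low to be tested at 3 hr.

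The proteins that build the bodies these RNAs belong to are given by their counts. Of 17 paraspeckle proteins tested, edgeR called 0 at 1 hr (3 of 17 at an unadjusted p under 0.05, and 0 called by DESeq2 or limma-voom). At 3 hr it called 1, higher, and the median log2 fold change of the list was 0 at both times. That gene was Sfpq, a core paraspeckle protein, which rose by a log2 fold change of 0.32 (SE 0.0567, adjusted p = 0.0231) from 150.5 CPM ± 4.81 in controls to 186 CPM ± 6.66 in LTP slices (SD, n = 3 and 3). The call of Sfpq was lost without 3 hr control 2 (0.30, adjusted p = 0.161) or 3 hr LTP 1 (0.30, 0.121), in a range over 13 alternatives from 0.000353 to 0.161. At 1 hr the smallest p belonged to Hnrnph3 (0.33, adjusted p = 0.326), which passed with the animal as a block (0.38, adjusted p = 0.0398).

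Of 20 nuclear speckle proteins, 1 rose at 1 hr and 2 at 3 hr, with list medians of 0.05 and 0.04. The splicing factor Srsf7 rose at 1 hr by 0.31 (SE 0.0711, edgeR adjusted p = 0.081), a call that was lost in 6 of 14 alternatives, among them the omission of 1 hr control 1 (0.27), 1 hr control 3 (0.35), 1 hr LTP 1 (0.32) or 1 hr LTP 2 (0.28). At 3 hr Srrm1 rose by 0.48 (SE 0.0966, adjusted p = 0.0326) and Srrm2 by 0.48 (SE 0.113, adjusted p = 0.057). Srrm2 is a core component of the speckle. Both lost the call without 3 hr control 1, 3 hr control 2, 3 hr control 3 or 3 hr LTP 1, at log2 differences from 0.47 to 0.50 for Srrm1 and from 0.43 to 0.55 for Srrm2.

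Of 6 proteins known to bind Miat or Rmst, 1 rose at 1 hr by edgeR, where DESeq2 called 2 and limma-voom 1. At 3 hr edgeR called 0, with 1 of 6 at an unadjusted p under 0.05, and DESeq2 and limma-voom also called 0. Sox2, the partner of Rmst, rose at 1 hr by 0.48 (SE 0.092, adjusted p = 0.0252), from 26.3 CPM in both controls used to between 32.8 and 39.3 CPM in LTP slices. The call of Sox2 was lost without 1 hr control 1 (0.48, adjusted p = 0.351), 1 hr control 3 (0.48, 0.323) or 1 hr LTP 1 (0.46, 0.166), and with 1 hr control 2 included and the animal as a block (0.43, 0.133). At 3 hr the value for Sox2 was 0.23 (adjusted p = 0.108).

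Of 19 snoRNA host genes other than Snhg11, 13 were in the tables. edgeR called 0 of the 12 tested at 1 hr (2 of 12 at an unadjusted p under 0.05, 0 by DESeq2 or limma-voom) and 1 of 13 at 3 hr, with medians of 0.04 and -0.09. Snhg14, the host transcript of the imprinted Prader-Willi region, rose at 3 hr by 0.43 (SE 0.0714, adjusted p = 0.0184) from 430.7 CPM ± 26 to 573.3 CPM ± 30.4 (SD, n = 3 and 3), and lost the call only without 3 hr control 2 (0.38, adjusted p = 0.123) among 13 alternatives. Snhg17 had the smallest p at 1 hr.

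Of 30 other long noncoding RNAs studied in brain or nucleus, 22 were in the tables and 21 were tested. At 1 hr 1 rose, C130071C03Rik, by 0.41 (SE 0.0737, edgeR adjusted p = 0.0155), and without 1 hr control 1 the call was lost (0.34, adjusted p = 0.422). At 3 hr 3 rose. Kcnq1ot1, the imprinted antisense RNA that silences its neighbours on the paternal chromosome, rose by 0.71 (SE 0.091, adjusted p = 0.00587) from 153.1 CPM ± 19.3 to 249 CPM ± 8.67 (SD, n = 3 and 3), a call kept in all 13 alternatives. Ftx, a noncoding gene of the X-inactivation centre, rose by 0.43 (SE 0.0833, adjusted p = 0.0306), and Mir124a-1hg, a host of the neuronal miRNA miR-124, by 0.42 (SE 0.106, adjusted p = 0.0651). Ftx lost the call without any one of the 3 hr controls or 3 hr LTP 1 (from 0.35 to 0.45), and Mir124a-1hg without 3 hr control 1 (0.37), 3 hr control 2 (0.39) or 3 hr LTP 1 (0.41). The list median was 0.06 at both times. These counts stand beside 0.778% of all genes called higher at 1 hr (1 of 20 speckle proteins, 1 of 6 partners and 1 of 21 here) and 5.07% at 3 hr (3 of 21 here and 1 of 17, 2 of 20 and 1 of 13 above), with no test of the lists.

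**Figure D5:**
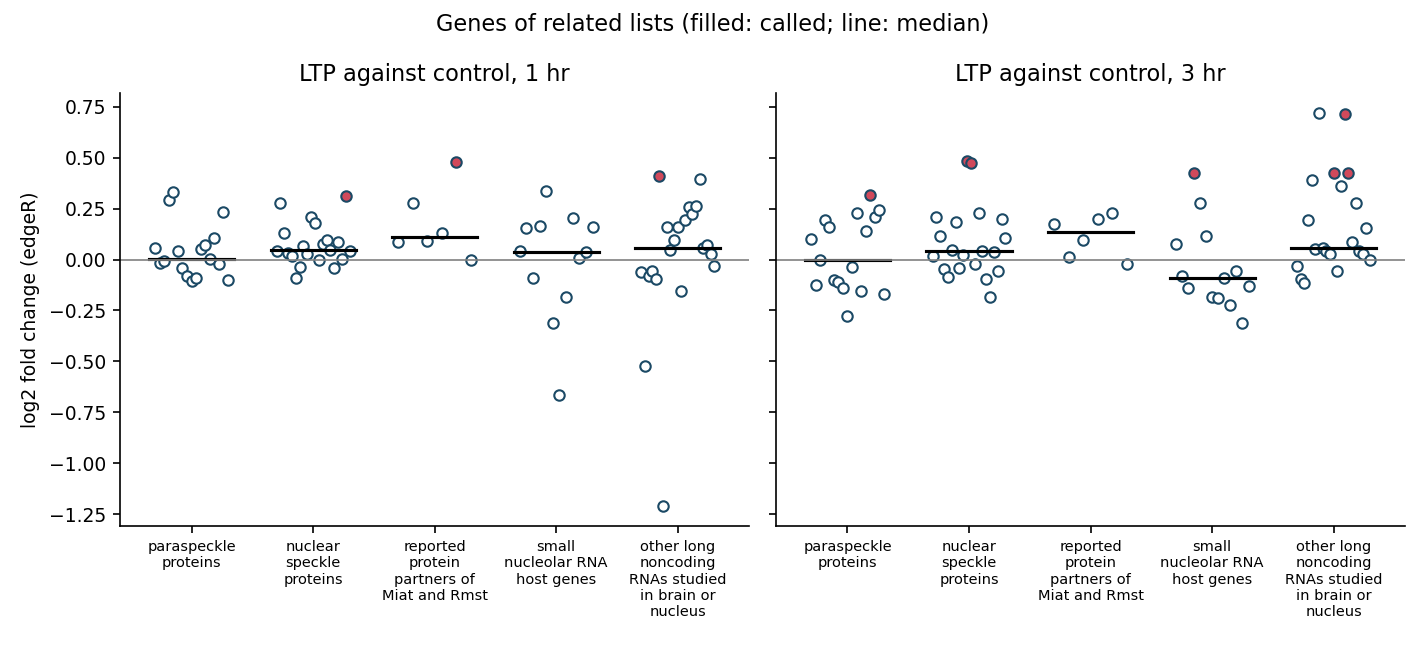
Log2 fold changes (y axis, edgeR) after LTP induction at 1 hr (left) and 3 hr (right) of the genes in 5 related lists (x axis), 1 point per gene; filled points were called and black lines are list medians. The called points at 3 hr are Sfpq, Srrm1, Srrm2, Snhg14, Kcnq1ot1, Ftx and Mir124a-1hg, all above 0, while the medians stay between -0.09 and 0.13.

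For the difference between the LTP effects, edgeR, DESeq2 and limma-voom called 0 genes of all 5 lists, with from 0 to 3 genes of a list at an unadjusted p under 0.05. Between the times the lists moved in both directions. In controls 6 of 17 paraspeckle proteins were called (2 higher and 4 lower), 6 of 20 nuclear speckle proteins (3 and 3) and 2 of 6 partners (both higher). Of the snoRNA hosts 4 of 13 were called (all higher), and of the other long noncoding RNAs 9 of 21 (2 higher and 7 lower), where 32.8% of all genes were called. In LTP slices the counts were 6, 4, 2, 6 and 7 in the same order, where 35.9% of all genes were called. The paraspeckle protein Nono fell there by 0.58 (edgeR adjusted p = 1.42e-05) and the long noncoding RNA Tug1 fell by 0.41 (edgeR adjusted p = 0.00136), opposite to Neat1. Means fell between the times in controls too, from 186.4 to 131.5 CPM for Nono and from 115.2 to 86.3 CPM for Tug1 (without 1 hr control 2). Nono and Tug1 were chosen after their values were seen.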

How the data were processed

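RNA-seq of hippocampal slices was available for 12 libraries. The deposited tables, 1 per time point, hold raw counts per gene, not normalized by the authors. By the study's methods, libraries were made with a stranded total RNA kit after ribosomal RNA depletion, and read pairs were mapped with STAR to mm10 (GRCm38) and counted per gene with Bioconductor packages. The submitters' processing notes name DESeq2. The use of strand in counting and the annotation release are not given in the sources used here, so reads of overlapping or antisense genes cannot be told apart. By ID, 40217 of 41091 genes matched GENCODE M21, and 874 did not.

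Counts were tested with the edgeR 4.0.16 quasi-likelihood test (R 4.3.3) over the whole table, after filterByExpr and TMM scaling, with Benjamini-Hochberg adjustment. LTP was compared with control in 5 libraries at 1 hr and 6 at 3 hr, and the other contrasts used a model of 4 groups with 11 libraries. The call required an adjusted p below 0.1 and a change above 1.2-fold, as in the study's methods (for the difference between LTP effects, at the adjusted p alone). The SE is the log2 fold change divided by the square root of F. The script was tested on simulated data. Levels are TMM-scaled CPM, and RPKM divides these by the union of exon lengths in GENCODE M21. Likeness between genes used log2(CPM + 0.1) over 14103 genes with a mean CPM of at least 1.

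Alternatives were DESeq2 1.42.0, limma-voom (limma 3.58.1), other scalings, no filter, each library left out, the library 1 hr control 2 included, and the animal as a block. The pairing comes from the labels, which give LTP and control slices the same animal numbers within a time point. Over 14185 genes, deviations of paired libraries from their group means correlated at 0.00293, -0.281 and 0.0963 at 1 hr and at 0.101, 0.0108 and 0.328 at 3 hr. No replicates were near identical (chi-square per degree of freedom from 9.49 to 85.6). The named genes were the 5 members, the 3 genes most like each, overlapping and neighbouring genes, and for each list up to 4 called genes of the smallest p, or the gene of the smallest p where none was called. The members and lists were chosen with earlier results of these data known. Results for some of the genes this rule names are not reported here.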

Additional observations from a re-analysis of the deposited data

How the results depend on the processing

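Over the 20 contrasts of the 4 genes and 332 alternative values, 287 kept both direction and side of the threshold, 15 lost a call, 4 gained one and 26 changed sign. The cause was not tested except where fewer samples enter. Neat1 lost its 1 hr call in DESeq2 (0.92) and with 1 hr control 2 included (0.48), and its 3 hr call in DESeq2 (0.93). With the replicate block Malat1 was called at 3 hr (0.31), the block changed no other call of the 4 genes (0.67 for Neat1 at 1 hr), and calls over all genes went from 140 to 206 at 1 hr and from 1155 to 1662 at 3 hr. In the block at 1 hr the LTP library of animal 2 has no partner. The contrasts between time points were fitted without the block, as the time points were taken to hold different animals, although the labels number the animals alike at both.

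Values that changed sign were all uncalled. Miat at 1 hr was -0.06 with 1 hr control 2 included and -0.05 with the block added. Miat between controls was -0.05 with that library included. The difference between LTP effects of Neat1 was -0.01 with total counts and -0.0046 with scaling from protein-coding genes. Snhg11 between controls was 0.02 with total counts and 0.0044 with no filter.

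Leaving out each library in turn gave from 0.68 to 1.10 for Neat1 at 1 hr and, at 3 hr, from 0.18 to 0.44 for Malat1, 0.74 to 1.30 for Neat1, 0.35 to 0.62 for Miat and 0.35 to 0.48 for Snhg11. Differences between LTP effects ran from -0.03 to 0.22 for Malat1, -0.19 to 0.36 for Neat1, 0.28 to 0.54 for Miat and 0.13 to 0.33 for Snhg11. Between controls they ran from -0.05 to 0.10 for Malat1, -0.11 to 0.16 for Miat and -0.07 to 0.04 for Snhg11, and between LTP groups from 0.02 to 0.27 for Malat1 and 0.13 to 0.33 for Snhg11. Hnrnph3 at 3 hr ran from -0.10 to 0.33. Calls over all genes ran from 69 to 344 at 1 hr and from 228 to 2170 at 3 hr without a library, and the counts called in each of the 5 lists after LTP lay between 0 and 5 over all alternatives. The difference between LTP effects had from 1 to 67 calls over all genes without a library and up to 102 under the other alternatives. At the depth of these libraries, 3 counts corresponded to between 0.059 and 0.0808 CPM.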
